A study of Mus musculus with 18 samples.

Results

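The authors' list for hippocampus of mice with an Arid1a conditional knockout (cKO) holds 24065 H3K27ac peaks. Of these, 4987 (20.7%) overlapped no called H3K4me3 peak and no called H3K27ac peak of wild type (WT). They were chosen by overlap of peak calls, as the cKO H3K27ac peaks that share no base with any of the 13006 WT H3K27ac peaks and none with any H3K4me3 peak of either genotype, and are called new distal peaks here. The name rests on the peak calls alone, since 121 of these peaks touched an annotated promoter window and 864 lay within 1 kb of a WT H3K27ac peak. Because the rule used the H3K27ac and H3K4me3 lists, the number, strength and spacing of these peaks are given as a description. H3K27me3, position relative to genes, sequence and RNA were not used to choose them.

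The peaks came from chromatin immunoprecipitation sequencing (ChIP-seq) of hippocampus at 3 weeks of age, with 1 library per genotype for H3K27ac, H3K4me3 and H3K27me3, each called against the input of its genotype. RNA was sequenced from hippocampus at postnatal day 21 (P21), with 2 WT and 2 cKO libraries, and at embryonic day 16.5 (E16.5), with 3 WT and 3 cKO libraries. All mice carried the C57BL/6 background, and neither the targeted cells nor the Cre driver of the deletion is given in the labels. With single ChIP-seq libraries no difference between the genotypes' peaks has a replicate check, so none is tested.

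Acetylation of lysine 27 on histone H3 is placed mainly by the acetyltransferases Ep300 and Crebbp at active promoters and enhancers. H3K4me3 marks promoters, so an H3K27ac peak without H3K4me3 is a usual working definition of an active distal element. Arid1a belongs to the BAF complex, the mammalian SWI/SNF remodeller that moves nucleosomes at enhancers, and its loss is known to change H3K27ac there.

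Only a small set of new distal peaks met an annotated RNA start, and the sequences of that set are shown first because they tie the peaks to named transcripts. Of 1005 annotated miRNA hairpins, 3 lay wholly inside a new distal peak. Mir128-2 (chr9:112118636-112118711, minus strand) lies within Arpp21 in a peak of 384 bases, Mir99a (chr16:77598936-77599000, plus strand) in a peak of 341 bases, and Mir3098 (chr6:125195792-125195878, plus strand) in a peak of 277 bases. One mature arm of each is printed 5′ to 3′ from RefSeq (GRCm38.p6), with the seed, bases 2 to 8, in capitals.
miR-128-3p: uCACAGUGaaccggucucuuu
miR-99a-5p: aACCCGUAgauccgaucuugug
miR-3098-5p: uCCUAACAgcaggaguaggagc
No seed is shared among these 3 arms. The peaks over Mir128-2 and Mir3098 were among the weaker ones, with a fold enrichment of 3.17 and 3.57, and the peak over Mir99a had 5.29. Mature miRNAs are too short for the RNA libraries, so their levels are not given. Of the host genes, Arpp21, which encodes a cAMP-regulated phosphoprotein, had 8 new distal peaks and a log2 value of 0.39 (SE 0.14; adjusted p = 0.14, edgeR) at P21. Mir99ahg, the long noncoding RNA that hosts Mir99a, had 2 such peaks and a log2 value of 0.13 (SE 0.21; adjusted p = 0.749, edgeR).

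New distal peaks touched 127 of 32851 promoter windows, defined as 250 bases before to 50 bases after each RefSeq start site, and these windows belonged to 116 genes. The peaks that touched one numbered 121, or 2.43% of new distal peaks. Of the 127 windows, 28 also met an H3K4me3 peak beside the H3K27ac peak. The peaks covered 8 windows whole, 4 of them of coding genes. The 250 bases upstream of those 4 start sites are printed 5′ to 3′ on the gene's strand (RefSeq, GRCm38.p6), because each is a start site inside a peak that carries H3K27ac without H3K4me3. Capitals mark every match, on either strand, to the motifs searched.
Akt2, chr7:27605547-27605796, plus strand: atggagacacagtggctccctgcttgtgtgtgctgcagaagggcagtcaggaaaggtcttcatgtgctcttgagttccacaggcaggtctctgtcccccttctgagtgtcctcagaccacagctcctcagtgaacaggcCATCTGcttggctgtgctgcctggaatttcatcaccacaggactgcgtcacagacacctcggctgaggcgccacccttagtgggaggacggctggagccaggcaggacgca
Gpr146, chr5:139389654-139389903, plus strand: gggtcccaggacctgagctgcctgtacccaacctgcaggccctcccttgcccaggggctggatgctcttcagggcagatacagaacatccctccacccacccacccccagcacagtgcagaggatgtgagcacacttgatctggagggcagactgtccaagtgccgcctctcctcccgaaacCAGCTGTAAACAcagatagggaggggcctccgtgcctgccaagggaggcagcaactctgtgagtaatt
Aspdh, chr7:44465185-44465434, plus strand: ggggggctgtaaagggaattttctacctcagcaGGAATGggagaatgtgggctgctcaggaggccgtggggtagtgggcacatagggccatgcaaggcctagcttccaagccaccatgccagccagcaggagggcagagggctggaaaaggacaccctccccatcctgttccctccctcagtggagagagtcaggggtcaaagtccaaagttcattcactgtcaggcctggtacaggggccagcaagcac
Gast, chr11:100334157-100334406, plus strand: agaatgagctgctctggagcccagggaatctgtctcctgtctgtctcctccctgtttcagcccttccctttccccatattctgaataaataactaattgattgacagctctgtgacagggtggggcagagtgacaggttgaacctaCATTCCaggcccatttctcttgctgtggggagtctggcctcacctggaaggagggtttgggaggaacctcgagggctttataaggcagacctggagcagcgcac
The Akt2 window, upstream of a kinase of insulin signalling, holds 1 CATCTG E-box and 5 CpG dinucleotides, and its peak of 658 bases had a fold enrichment of 7.60. The Gpr146 window holds a CAGCTG E-box that shares 1 base with a FOX match. The windows of Aspdh and of Gast, the gene of the hormone gastrin, each hold 1 CATTCC, the core of the TEAD motif. At P21 Akt2 had 87.6 and 78.2 CPM (counts scaled to a common library total) in WT and 74.2 and 68.3 CPM in cKO. The groups did not overlap, but the log2 change of -0.22 (SE 0.11; adjusted p = 0.269, edgeR) did not pass. Gpr146, an orphan receptor gene with 7 new distal peaks, had 24.2 and 20.6 CPM in WT and 25.1 and 32.0 CPM in cKO and did not pass either (log2 0.35, SE 0.16; adjusted p = 0.219, edgeR).

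The 127 touched windows were closer in base composition to all start sites than to promoters with shared peaks. Their median GC content was 55.7%, against 52.7% over all windows and 65.3% over the 5605 windows that overlap an H3K27ac peak shared by both genotypes at H3K4me3. Their median number of CpG dinucleotides was 6, against 7 and 26. Of 13 motifs searched on both strands, the TEAD core CATTCC was in 27 of the 127 windows (21.3%, Wilson 95% interval 15.04 to 29.2%), against 14.7% of all windows and 9.88% of the shared H3K4me3 set. The E-box CATCTG was in 23.6% (17.1 to 31.7%) against 17.2% of all windows, and the E-box CAGCTG in 22.8% (16.4 to 30.9%) against 16.3%. The AP-1 motif TGANTCA was in 9.45% (5.49 to 15.8%) against 7.81%, and the ETS motif CCGGAAGT, which is frequent at CpG-rich promoters, in 2.36% (0.807 to 6.72%) against 3.89% of all windows and 8.88% of the shared H3K4me3 set. The FOX motif TGTTTAC was in 9 windows (7.09%, 3.77 to 12.9%) against 3.65% of all windows. No difference among the 13 motifs was tested. The others were CRE (TGACGTCA, 1.57% against 1.79%), SOX (ACAATGG, 3.94% against 3.66%), MEF2 (5.51% against 3.69%), homeobox (TAATTA, 3.94% against 5.29%), the full NFI palindrome, EGR (GCGTGGGCG) and CTCF. The last 3 had no match in the 127 windows, which allows a share of up to 2.94% by the Wilson interval. A match is a run of letters and not a bound site, and the sequence under the other new distal peaks was not analysed here.

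New distal peaks were numerous, narrow and of modest strength. Their median length was 248 bases (192 to 1427) and they covered 1.44 Mb in all. The authors' fold enrichment over input at the summit had a median of 4.96 and ran from 2.85 to 9.82, with 10% of peaks below 4.05 and 10% above 6.11. The 813 distal peaks that cKO shares with WT were longer, with a median of 350 bases, and had a median fold enrichment of 5.47. Peaks at H3K4me3 were stronger still, at 5.62 for the 8910 new ones and 7.93 for the 9355 shared ones. The median -log10 q of new distal peaks was 5.15, against 6.84 for shared distal peaks.

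**Figure D1:**
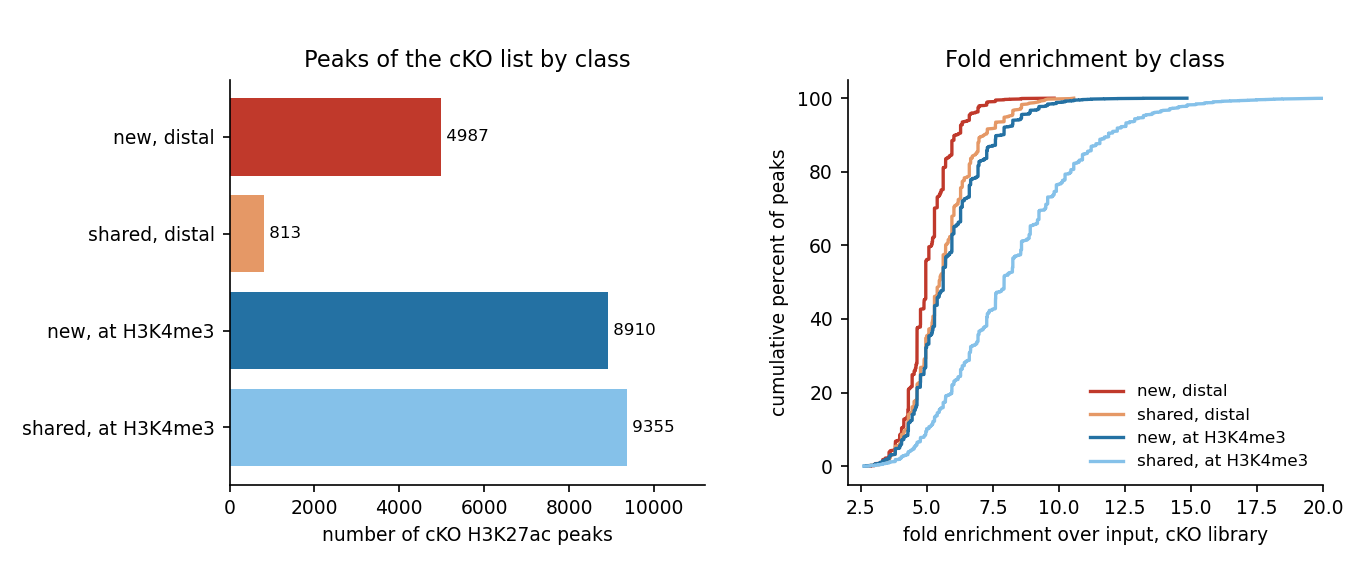
Left, bars give the number of cKO H3K27ac peaks in each class by overlap with WT H3K27ac and with H3K4me3. Right, lines give the cumulative percent of each class by the authors' fold enrichment over input in the cKO library, with the axis ending at 20. The 4987 new distal peaks form the leftmost curve, with a median of 4.96, and the 9355 shared peaks at H3K4me3 the rightmost, with a median of 7.93.

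The new share was larger among distal peaks than among peaks at H3K4me3. Of all distal cKO peaks 85.98% were new, against 48.8% of the cKO peaks at H3K4me3. Both shares come from the calls that the rule used and are a description only. Distal peaks were also weaker than those at H3K4me3, and the part of that in the shares was not tested. Distal peaks made up 24.1% of the cKO list and 15.5% of the WT list. In the other direction, 849 of the 2013 distal WT peaks (42.2%) were met by a cKO peak.

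The H3K27ac libraries as a whole also differed, in ways that bear on these counts. They held 19291198 (WT) and 19288471 (cKO) tags, with 17876653 and 18301652 input tags, yet the cKO peaks covered 11.6 Mb and the WT peaks 5.17 Mb. At the 9355 shared peaks at H3K4me3 the median fold enrichment was 5.66 in WT and 7.93 in cKO, and 81.4% were higher in cKO. At the 813 shared distal peaks it was 5.11 and 5.47, and 62.9% were higher in cKO. When the cKO list was limited to its 13006 peaks with the best q, the length of the WT list, 839 new distal peaks were left. The part of the library-wide difference in the number of new distal peaks was not tested, and with 1 library per genotype it cannot be told apart from the genotype. The threshold is also a matter of bases. The 5 new distal peaks closest to a WT peak lay 2, 4, 5, 7 and 8 bases from it and had fold enrichments between 3.81 and 6.03, and the 5 cKO peaks with the least overlap shared 1, 1, 1, 2 and 5 bases with a WT peak and had fold enrichments between 4.30 and 7.03.

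The 8 strongest new distal peaks had fold enrichments of 8.59 to 9.82. The highest lay inside Siae, a sialic acid esterase gene (chr9:37626076-37626642, 9.82), and the second 18942 bases outside Pde10a, a phosphodiesterase of striatal neurons (chr17:8505893-8506245, 9.58). Peaks at 8.92 lay inside Atp6v0e, a proton pump subunit (chr17:26693107-26693587), and inside Nfix, a nuclear factor I gene (chr8:84781425-84781716). The other 4, each at 8.59, lay inside Mapt, which encodes tau (chr11:104254315-104255358), inside Lmf1 (chr17:25618694-25618983), inside Ttc7 (chr17:87378073-87378554) and 4515 bases outside Fgd2 (chr17:29355836-29356389). The Atp6v0e peak began 25 bases from a WT peak, whereas the Ttc7 peak lay 67527 bases from the nearest one. The 8 tested genes within 10 kb of these peaks had log2 changes of RNA at P21, none past the edgeR threshold, from -1.03 (Fgd2, SE 0.29; adjusted p = 0.0726 by edgeR) to -0.02 (Mtch1, SE 0.12; adjusted p = 0.925 by edgeR). At the weak end, the 4 peaks with the lowest -log10 q had 2.02 to 2.33, next to the caller's limit, and lay inside Snd1, Wdr37 and Ppm1h or outside genes.

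New distal peaks were mostly intragenic. Of the 4987, 3964 (79.5%, Wilson 95% interval 78.3 to 80.6%) overlapped a RefSeq gene and 70.8% a protein-coding one, against 77.7% (74.8 to 80.5%) and 66.9% of shared distal peaks. Summits of the 4734 peaks on chromosomes with start sites in the reference table lay a median of 17.8 kb from the nearest start, against 17.5 kb for shared distal peaks. Only 7.12% lay within 1 kb of a start site, 29.2% at 1 to 10 kb, 40.6% at 10 to 50 kb and 10.4% beyond 100 kb. Of peaks at H3K4me3, 61.1% of the new and 72.4% of the shared ones lay within 1 kb.

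**Figure D2:**
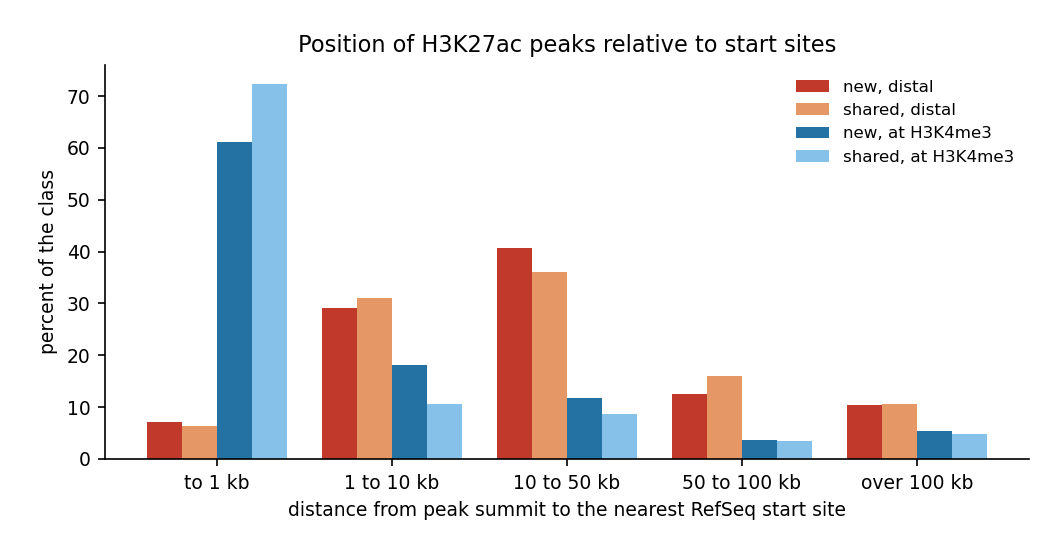
Bars give the percent of each class of cKO H3K27ac peaks by the distance from the summit to the nearest RefSeq start site, over peaks on chromosomes with start sites in the reference table. New distal peaks were most frequent at 10 to 50 kb (40.6%), and 72.4% of the shared peaks at H3K4me3 lay within 1 kb.

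Most new distal peaks lay at a distance from WT peaks. The median gap to the nearest WT H3K27ac peak was 12.8 kb, 864 (17.3%) lay within 1 kb of one, and 602 (12.1%) lay over 100 kb away. Fold enrichment hardly varied with that gap, with a median of 5.08 within 1 kb and 4.96 in each of the ranges 1 to 10 kb, 10 to 100 kb and over 100 kb. Of the peaks within 1 kb 72.8% lay inside a gene, and of those beyond 100 kb 70.9%, against 83.4% of those at 10 to 100 kb. Across the autosomes new distal peaks made up between 14.6% (chromosome 3) and 28.9% (chromosome 18) of the cKO peaks of a chromosome. On the X chromosome they made up 2.92%, or 9 of 308.

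H3K27me3, the mark of Polycomb repression and alternative to acetylation on the same lysine, was rare at new distal peaks. It overlapped 6 of them in WT (0.12%, Wilson 95% interval 0.0552 to 0.262%) and 47 in cKO (0.942%, 0.71 to 1.25%). Of shared distal peaks, 0 of 813 met a WT H3K27me3 peak, which allows up to 0.47%, and 7 met one of cKO (0.861%, 0.418 to 1.77%). Of the new peaks at H3K4me3, 9.88% (9.27 to 10.5%) met cKO H3K27me3. The cKO list of H3K27me3 was itself longer, 15659 peaks over 13.0 Mb against 4124 over 2.86 Mb in WT, and the part of that in the counts was not tested. In whole tissue, overlap does not place both marks on 1 chromosome copy or in 1 cell. Genes within 10 kb of some of the 47 peaks were Pcca (3 peaks), Zic2 (3), Sox2 (2), Gli2 (2) and Grin1 (2), examples chosen after the list was seen. Of these Zic2, a zinc-finger factor of the dorsal midline, rose at P21 from 18.3 ± 1.83 to 41.9 ± 12.9 CPM (SD of 2 libraries each). Its log2 change was 1.19 (SE 0.22, adjusted p = 0.0308 by edgeR). Sox2 rose too, by 0.50 on the log2 scale (SE 0.11, adjusted p = 0.0416 by edgeR). Among other genes near the 47 peaks that are named below, Id3 and Gjb6 rose at P21, while Nfia, Bcl11b and Cd38 fell. The share called among all genes near these peaks is not given here.

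The peaks were unevenly spread along the genome. When peaks separated by at most 12.5 kb, the distance customary for stitching enhancers, were joined, 2831 clusters resulted, of which 1918 were single peaks (38.5% of all new distal peaks). The 161 clusters of 5 or more held 1215 peaks (24.4%), and 29 clusters held 10 or more. Peaks in clusters of 10 or more lay closer to WT H3K27ac peaks (median gap 2.81 kb) than single ones (26.1 kb), with a median fold enrichment of 5.04 against 4.90. The largest cluster had 23 peaks over 70.3 kb at Zmynd8, which encodes a chromatin reader protein (chr2:165819338-165889624). Tcf4 held clusters of 20 and 16 peaks. Others lay at Coro2b, a neuronal coronin that binds actin (19 peaks, chr9:62508961-62554234), Zbtb20, a transcription factor of CA1 neurons (14, chr16:43513018-43557752) and Ksr1, a scaffold of the MAP kinase pathway (13, chr11:79055122-79096523). Add2, an adducin of the membrane skeleton (chr6:86039537-86078260), and Zbtb16, which encodes the transcription factor PLZF (chr9:48665702-48687821), had 12 each.

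**Figure D3:**
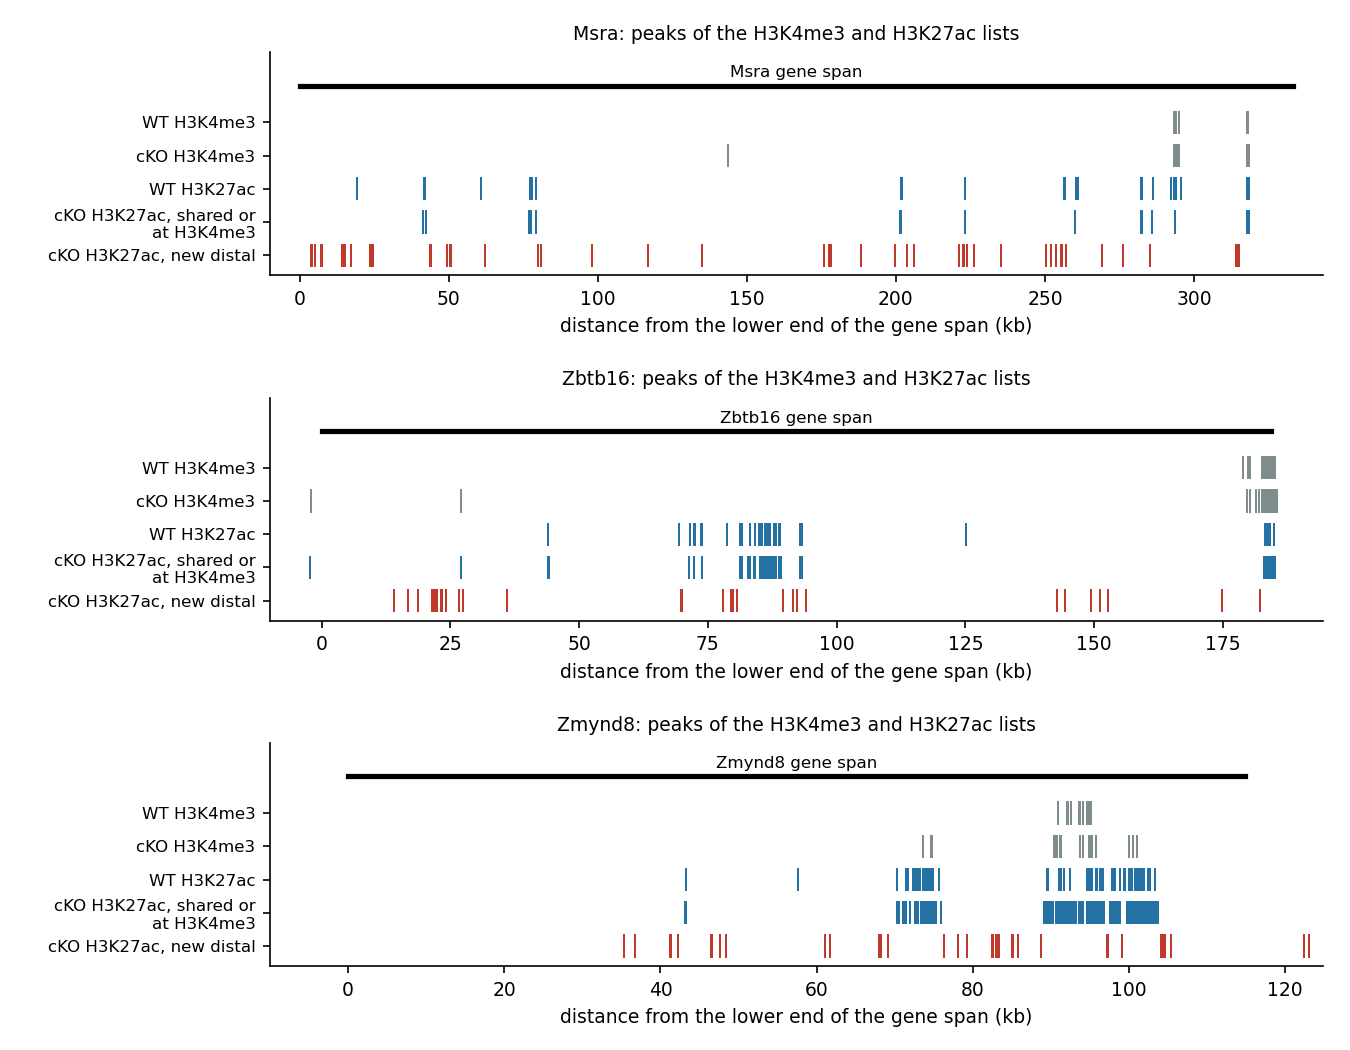
Peaks of the H3K4me3 and H3K27ac lists across Msra, Zbtb16 and Zmynd8 and 10 kb to either side, by distance from the lower end of the gene span in kb; each mark is 1 peak, with narrow peaks drawn at a minimum width, so that close peaks can merge. The 44, 28 and 25 new distal peaks (red) lie between and beside the WT H3K27ac peaks of each locus (19, 19 and 24).

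For the comparison with RNA a peak was linked to every RefSeq gene within 10 kb. This linked 4650 peaks (93.2%) to 3500 genes, 2244 of them protein coding and 966 lncRNAs. Of the 3500, 68.5% also had a WT H3K27ac peak within 10 kb, 276 had 5 or more new distal peaks and 54 had 10 or more. Long genes collect more peaks. The median span was 25.9 kb for tested genes with 1 peak and 162 kb for those with 10 or more, and the median level rose likewise from 36.3 to 267 CPM.

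Most of the genes with the most new distal peaks did not pass edgeR at P21. The 10 with the most were Tcf4 (59 peaks), Msra (44), Zbtb20 (33), Zbtb16 (28), Zmynd8 (25), Coro2b (23), Add2 (22), Gse1 (20), Ksr1 (20) and Nfix (19), and 1 of them passed the edgeR threshold of an adjusted p under 0.05. That was Gse1, a subunit of a histone deacetylase complex, with 176 and 152 CPM in WT and 108 and 106 CPM in cKO. Both cKO libraries lay below both WT libraries, and the log2 change was -0.61 (SE 0.11; adjusted p = 0.0224, edgeR). Its call was lost without WT replicate 1.

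The basic helix-loop-helix factor Tcf4 had 439.9 and 484 CPM in WT and 425 and 446 CPM in cKO. Msra, a methionine sulfoxide reductase, had 32.2 and 31.8 CPM in WT and 31.7 and 36.4 CPM in cKO. Zmynd8 had 132 and 147 CPM in WT and 141 and 139.8 CPM in cKO. The genotypes overlapped in all 3, with log2 changes of -0.08 (SE 0.11), 0.09 (SE 0.12) and 0.01 (SE 0.11). Zbtb20 had 345 and 349 CPM in WT and 271 and 267 CPM in cKO, Add2 had 485 and 508 against 396 and 319.9, and Nfix had 492 and 446 against 338 and 364. These 3 genes were lower in both cKO libraries, without passing edgeR (log2 -0.37, -0.47 and -0.42, edgeR adjusted p = 0.0685, 0.068 and 0.0623). DESeq2 called all 3 lower. Coro2b, Ksr1 and Zbtb16 had log2 changes of -0.14, 0.20 and 0.17. Among all tested genes with 10 or more new distal peaks, 3 more passed, chosen here after their values were seen. Cpe, the carboxypeptidase that processes neuropeptides (16 peaks), rose from 1837 ± 23.9 to 2968 ± 130 CPM (SD of 2 libraries each; log2 0.69, SE 0.11; adjusted p = 0.0121, edgeR). The phosphatase gene Ppm1h (12 peaks; log2 -0.54, SE 0.10; adjusted p = 0.023, edgeR) and the zinc-finger factor gene Zeb2 (12 peaks; log2 -0.60, SE 0.12; adjusted p = 0.0271, edgeR) fell.

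Of the 2241 linked genes tested at P21, 72 were higher (3.21%) and 117 lower (5.22%) in cKO by edgeR's quasi-likelihood test. Over all 17407 genes tested the shares were 2.81% higher and 3.91% lower, and 2.83% and 4.08% over those with coordinates. The median log2 change of linked genes was -0.02, against 0.01 over all genes with coordinates, and the genotypes did not overlap in 57.7% of linked genes, against 56.6% of genes with coordinates and 56.1% of all tested. In this fit the shares for linked genes thus lay near the background in both directions, somewhat above it in the lower one. By DESeq2, 89 of 2163 linked genes were higher (4.11%) and 175 lower (8.09%), against 3.12% and 5.63% of genes with coordinates. With a replicate block in the edgeR fit the shares of linked genes were 2.19% higher and 3.03% lower, against 2.06% and 2.96% of genes with coordinates. The median level of linked genes was 47.7 CPM, against 18.2 CPM over genes with coordinates. The part of that in the shares called was not tested. In whole tissue a lower level can come from fewer cells of a type or from less RNA per cell, which cannot be told apart. The share called was 7.97%, 8.16%, 8.96%, 12.03% and 7.84% for genes with 1, 2, 3 or 4, 5 to 9 and 10 or more peaks, against 6.9% of all genes tested with coordinates. The counts of 72 higher and 117 lower depended on single libraries. Both went down on leaving out a WT replicate, whichever it was, and up on leaving out a cKO replicate. The shares over all genes with coordinates moved in the same directions. Each such fit leaves 1 library in a group. With upper-quartile scaling 89 linked genes were higher and 82 lower, so that 52.0% of the calls were higher, against 38.1% with TMM scaling. The upper-quartile shares were 3.97% and 3.66%, against 3.31% and 3.10% of genes with coordinates.

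Shares called were higher, without a test of the difference, for linked genes that lacked any WT H3K27ac peak within 10 kb. Of 452 such genes tested at P21, 28 were higher (6.19%) and 28 lower (6.19%), against 4.14% and 4.13% of all 6641 tested genes without a WT peak. Their median level was 15.7 CPM, against 6.19 CPM over those 6641, and the part of that in the share called was not tested. Of the 1789 linked genes that also had a WT peak, 44 were higher (2.46%) and 89 lower (4.97%), against 1.88% and 4.04% of all 9284 tested genes with a WT peak.

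**Figure D4:**
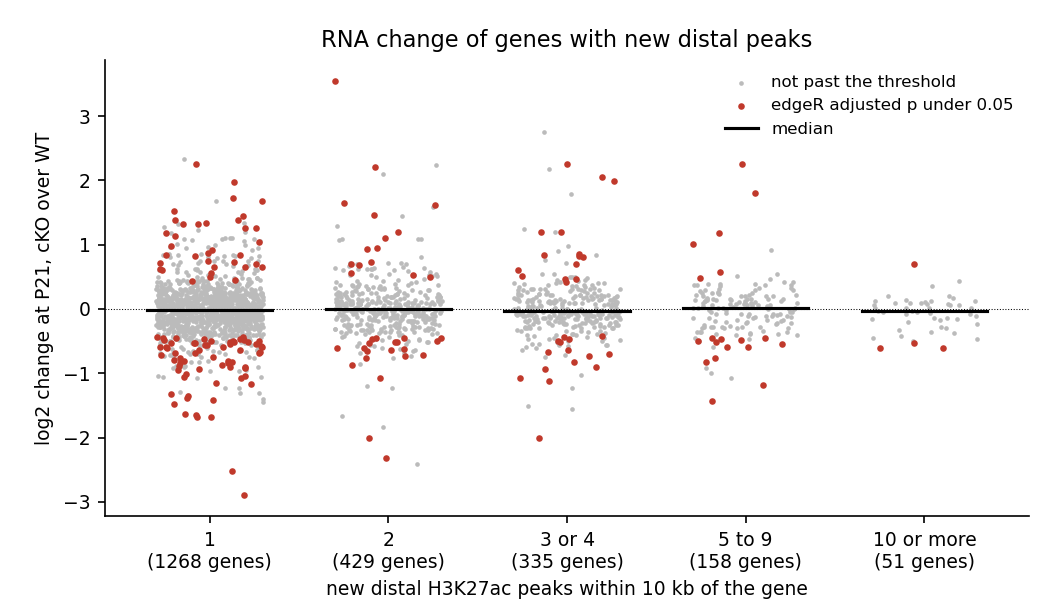
Each point is 1 linked gene tested at P21, by the number of new distal H3K27ac peaks within 10 kb (x) and the log2 change of RNA, cKO over WT (y); red points passed an edgeR adjusted p under 0.05, black lines are medians, and points are spread sideways at random for display. The medians lie between -0.04 and 0.01 in the 5 classes.

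The 10 linked genes with the highest log2 change at P21 were Cd4, Cdkn1a, Zfhx2os, Ccdc33, Ccl17, Plin4, Cnn2, Myo1h, Zfp36 and Socs3. Cdkn1a, the cyclin-dependent kinase inhibitor p21 and a p53 target, had 10.7 and 15.5 CPM in WT and 54.0 and 71.6 CPM in cKO, with 1 new distal peak. Plin4, a lipid droplet protein, had 3.56 and 6.02 CPM in WT and 18.5 and 19.1 CPM in cKO. Zfp36, a protein that speeds the decay of cytokine mRNAs, had 6.21 and 5.42 CPM in WT and 17.7 and 18.9 CPM in cKO, with 2 peaks. For all 3 the genotypes were well apart. Their log2 changes were 2.26 (SE 0.22), 1.97 (SE 0.24) and 1.65 (SE 0.16), with adjusted p from edgeR between 0.00306 and 0.00656. Cnn2, an actin-binding calponin, rose from 6.59 ± 0.537 to 21.9 ± 0.466 CPM (SD of 2 libraries each). Socs3, an inhibitor of cytokine receptors, rose from 1.05 ± 0.283 to 3.23 ± 0.681 CPM, with log2 1.61 (SE 0.35; adjusted p = 0.0366, edgeR). Cd4, a co-receptor of T cells, rose from 4 and 2 counts in the WT libraries to 27 and 47 in the cKO ones. Like Cd4, other genes of this set were low. The chemokine Ccl17, which has 3 new distal peaks inside its gene and no WT H3K27ac peak within 10 kb, went from 9 and 8 counts in the WT libraries to 27 and 42 in the cKO ones, and Ccdc33 had 7 and 9 against 28 and 40. Myo1h, an unconventional myosin, and Zfhx2os, an antisense RNA whose reads cannot be told apart from its partner's, since how strand was used in counting is not stated in these sources, completed the 10. The calls of Cd4, Ccdc33, Ccl17, Myo1h, Zfhx2os and Socs3 were lost without at least 1 library, and those of Cdkn1a, Plin4, Cnn2 and Zfp36 were kept without any of the 4.

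The 10 linked genes with the lowest log2 change at P21 were Lcat, Mirt1, Grm2, Arc, Tmem88b, Robo3, Hsd11b1, Ntn5, Arhgef19 and Dpf3. Lcat, which esterifies cholesterol in lipoproteins, had 30.9 and 25.5 CPM in WT and 4.29 and 3.26 CPM in cKO. Grm2, a presynaptic metabotropic glutamate receptor, had 84.5 and 84.0 CPM in WT and 17.1 and 16.5 CPM in cKO. Arc, a synaptic protein transcribed on activity, had 264 and 289.5 CPM in WT and 78.0 and 59.4 CPM in cKO. All cKO values lay below all WT values, with log2 changes of -2.90 (SE 0.19), -2.33 (SE 0.11) and -2.01 (SE 0.15) and adjusted p from edgeR between 0.000246 and 0.00108. Arc had 4 new distal peaks within 10 kb, none inside the gene, and no WT H3K27ac peak. The lncRNA Mirt1 went from 67 and 58 counts in the WT libraries to 9 and 13 in the cKO ones. Robo3, an axon guidance receptor, fell from 42.8 ± 9.35 to 13.4 ± 1.33 CPM (SD of 2 libraries each), and Hsd11b1, which regenerates active glucocorticoid, from 22.2 ± 2.22 to 7.07 ± 1.14 CPM. Dpf3, a BAF subunit that reads acetylated histones and has 5 new distal peaks inside its gene, fell from 12.4 ± 0.932 to 4.60 ± 1.61 CPM (log2 -1.43, SE 0.25; adjusted p = 0.0197, edgeR). Tmem88b (log2 -1.68), the netrin gene Ntn5 (-1.64) and Arhgef19 (-1.47) completed the 10. Of these the calls of Ntn5 and Dpf3 were lost without at least 1 library.

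**Figure D5:**
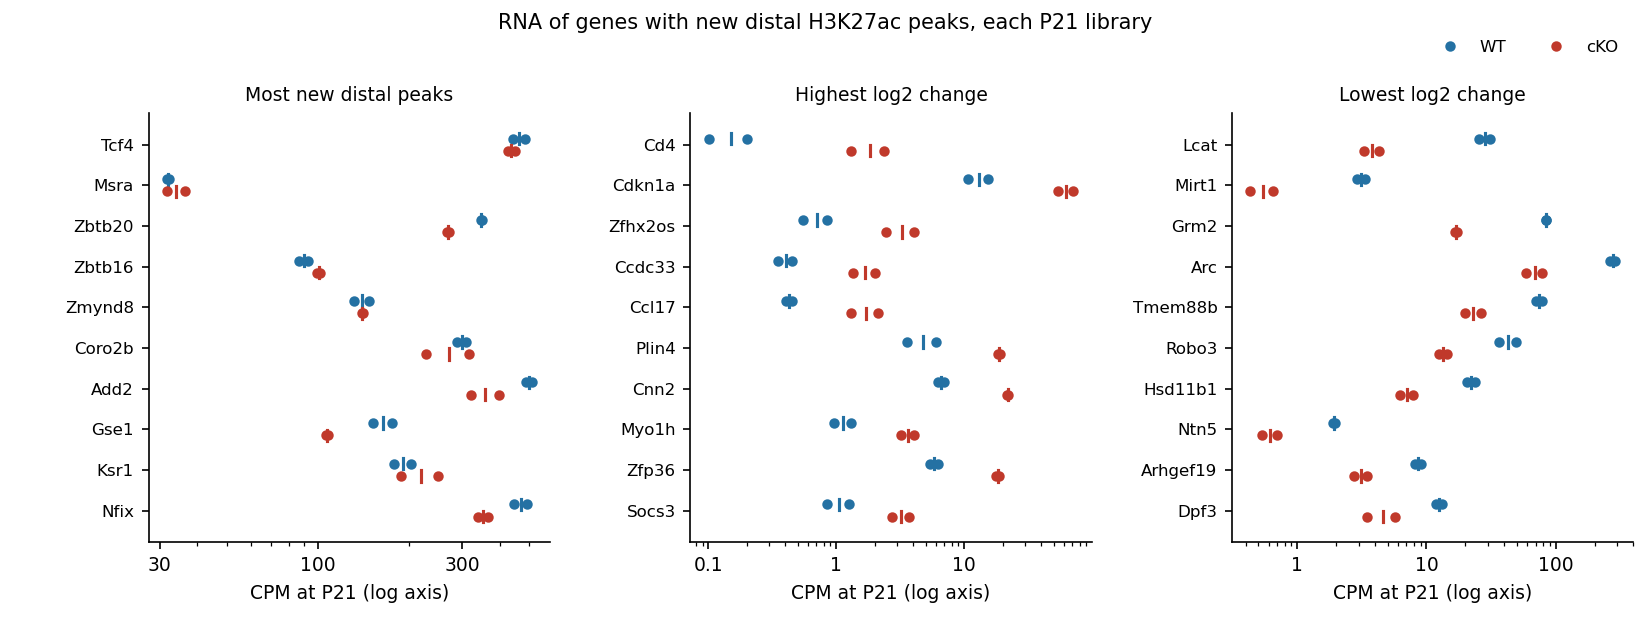
Points are the CPM of each P21 library on a log axis for WT (blue) and cKO (red), short lines are means of 2 libraries, and genes are those with the most new distal peaks and those linked genes with the highest and lowest log2 change. In the left panel the genotypes overlap for Tcf4, Msra, Zmynd8, Coro2b and Ksr1; in the other panels they lie apart, as the naming rule required.

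Genes touched at their start by a new distal peak gave a small set of their own. Of 64 tested at P21, 5 were higher and 5 lower, where 2.81% and 3.91% of all genes tested were called. Besides Lcat and Ccl17 these included Sult1a1, a phenol sulfotransferase (9.26 and 12.8 CPM in WT, 30.5 and 29.7 CPM in cKO; log2 1.45, SE 0.17; adjusted p = 0.00507, edgeR), and Pnpla2, the adipose triglyceride lipase (19.8 and 20.7 against 38.1 and 50.7 CPM; log2 1.13, SE 0.16; adjusted p = 0.00861, edgeR). Cd38, an enzyme that consumes NAD, had 12.17 and 11.98 CPM in WT and 3.47 and 5.97 CPM in cKO (log2 -1.36, SE 0.26; adjusted p = 0.0259, edgeR). These 3 were named after their values were seen.

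Arid1a itself had 2 new distal peaks within 10 kb, 1 of them inside the gene (chr4:133679008-133756769). Its RNA had 215 and 205 CPM in WT and 109.95 and 89.2 CPM in cKO at P21, with log2 -1.08 (SE 0.13; adjusted p = 0.00507, edgeR). Of 30 BAF subunit genes, 12 had new distal peaks, 43 links in all, led by Bcl11a (10), Arid1b (7), Dpf3 (5) and Bcl11b (5). The 12 included 0 that rose and 3 that fell, namely Arid1a, Dpf3 and Bcl11b, a zinc-finger factor that binds the complex, with 180.3 and 192 CPM in WT and 98.5 and 121 CPM in cKO (log2 -0.76, SE 0.13; adjusted p = 0.0162, edgeR). The call of Bcl11b was lost without WT replicate 2. In the whole list of 30, 4 fell and 0 rose. The median log2 change was -0.06 for the 12 and -0.04 for the list. The 2 with the most peaks had values near 0, Bcl11a with 0.05 (SE 0.12) and Arid1b with -0.05 (SE 0.11).

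Of 21 genes that write, erase or read acetylation at enhancers, 8 had new distal peaks, 18 links in all. Of the 8, 0 passed edgeR (3 had an unadjusted p under 0.05, and DESeq2 called 0), and their median log2 change was 0.02. Of 18 AP-1 and TEAD factors, 5 had new distal peaks, Tead1 with 4 (log2 -0.18, SE 0.17). Only Junb passed among them, with 90.3 and 83.4 CPM in WT and 44.8 and 49.5 CPM in cKO. Of the 15 factors of the list tested, 4 fell and 1 rose.

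Immediate early genes, the first to be transcribed after synaptic input, had 4 of 5 linked members called. Of the 14 genes of the list, 5 had new distal peaks, namely Arc (4), Npas4 (2), Junb, Egr1 and Dusp1 (1 each). Arc, Egr1 and Junb fell, Dusp1, whose product dephosphorylates MAP kinases, rose, and Npas4 had log2 -0.76 (SE 0.20; adjusted p = 0.0736, edgeR). The zinc-finger factor Egr1 had 387 and 493 CPM in WT and 181 and 169.6 CPM in cKO, with log2 -1.33 (SE 0.14; adjusted p = 0.00342, edgeR). In the whole list, with or without new distal peaks, 11 fell and 1 rose. The median log2 change was -0.88 for linked members and -0.87 for the list.

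Of 30 axon guidance genes, 9 had new distal peaks, 25 links in all, led by Slit1 (9) and Nrp2 (6). None of the 9 rose, and Robo3, the Eph receptor gene Ephb2 and the ephrin gene Efnb3 fell. In the whole list of 30, 7 fell and 0 rose. Ephb2 had 37.8 and 39.3 CPM in WT and 20.5 and 20.5 CPM in cKO (log2 -0.91, SE 0.11; adjusted p = 0.00656, edgeR), and Efnb3 had 221 and 199 against 157 and 146 CPM (log2 -0.47, SE 0.11; adjusted p = 0.0453, edgeR). Slit1 and Nrp2 had log2 changes of 0.17 (SE 0.11) and -0.08 (SE 0.12). The median was -0.31 for linked members and -0.26 for the list. The call of Efnb3 was lost without either WT replicate.

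Cell type marker lists differed in how many members had new distal peaks. Of 16 astrocyte markers 8 had them, Nfia with 4 and Nfib with 3. Id3, an inhibitor of helix-loop-helix factors, had 11.5 and 7.07 CPM in WT and 23.0 and 28.3 CPM in cKO and rose by 1.47 on the log2 scale (SE 0.24; adjusted p = 0.0195, edgeR). The connexin gene Gjb6 rose by 0.73 (SE 0.13), and Nfia fell by 0.64 (SE 0.11). Over all 16 astrocyte markers 4 rose and 4 fell, with a median log2 change of -0.15. Of 17 oligodendrocyte genes only Mbp, the myelin basic protein, had a peak (1), and it fell by 0.56 (SE 0.10; adjusted p = 0.0228, edgeR) in a list where 10 fell and 0 rose. Of 18 markers of radial glia and progenitors only Sox2 had any (2), and it rose from 29.7 ± 1.68 to 41.9 ± 0.879 CPM (SD of 2 libraries each; log2 0.50, SE 0.11; adjusted p = 0.0416, edgeR). Of the 17 tested in that list 3 rose and 4 fell, with a median log2 change of -0.21. The calls of Nfia, Mbp and Sox2 were lost without either WT replicate, that of Gjb6 without WT replicate 1 and that of Id3 without cKO replicate 2.

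Neuronal markers with new distal peaks did not pass. Of 14 pyramidal neuron markers 6 had them, led by Mpped1 (4) and Dkk3 (3), and 0 of the 6 passed edgeR (1 had an unadjusted p under 0.05, and DESeq2 called 0), with a median log2 change of 0.03. Over all 14 pyramidal markers 4 rose and 1 fell. Of 13 dentate granule markers only Maml2 had peaks (2; log2 -0.31, SE 0.15), while 9 of the 13 fell. None of 15 GABAergic interneuron markers and none of 13 choroid plexus and ependymal markers had a new distal peak. Among microglial markers only the complement genes C1qa, C1qb and C1qc did, 1 link each, and their log2 changes were 0.10, 0.02 and 0.01, while 7 of the 14 microglial markers fell and the median of the list was -0.51. Of 13 p53 targets, Cdkn1a and Btg2 had 1 link each, and of 19 IGF-binding, fibulin and imprinted growth genes Igf1r had 2 and Igfbp4 and Matn2 had 1. Matn2, a matrilin of the extracellular matrix, rose from 35.9 ± 5.59 to 64.5 ± 0.736 CPM (SD of 2 libraries each; log2 0.84, SE 0.13; adjusted p = 0.0121, edgeR). In its list of 19, 6 rose and 1 fell.

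Summed marker levels differed between the P21 libraries. The summed level of the 13 striatal markers was 234 and 267 CPM in WT and 314 and 432 CPM in cKO, and 2 of these genes, Foxp1 and Rarb, had a new distal peak. Choroid plexus and ependymal markers summed to 1444 and 1207 CPM in WT and 3670 and 1071 CPM in cKO. Oligodendrocyte genes summed to 7639 and 8186 CPM in WT and 4905 and 4540 CPM in cKO. The part of these differences in the RNA changes of linked genes, or of cell makeup in the ChIP-seq libraries, was not tested.

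At E16.5, before the age at which the peaks were called, linked genes were mostly below the edgeR threshold. Of 2171 tested, 0 were higher (188 at an unadjusted p under 0.05 by edgeR, and 53 called by DESeq2) and 7 were lower (0.322%), against 0.0118% and 0.112% of all 16958 genes tested and 0.0129% and 0.116% of those with coordinates. At an unadjusted p under 0.05 by edgeR 380 were lower. By DESeq2 168 of 2121 were lower (7.92%), against 4.796% of genes with coordinates. In the higher direction the DESeq2 shares were 2.499% of linked genes and 2.34% of genes with coordinates. The median log2 change of linked genes was -0.05, against -0.01 over all genes with coordinates. The 7 were Arid1a, Ksr1, Aldoc, Bcan, Hpca, Slco1c1 and Cdc42ep1. Bcan, the brain proteoglycan brevican, had 105.1, 113 and 122 CPM in WT and 10.7, 9.50 and 15.7 CPM in cKO. Aldoc, the astrocytic aldolase, had 134, 139.7 and 163 CPM in WT and 19.9, 31.5 and 34.5 CPM in cKO. Slco1c1, a thyroxine transporter, had 72.2, 56.4 and 65.5 CPM in WT and 20.9, 22.4 and 22.8 CPM in cKO. In all 3 every cKO library lay far below every WT library, with log2 changes of -3.24 (SE 0.20), -2.35 (SE 0.22) and -1.55 (SE 0.10) and edgeR adjusted p between 0.0112 and 0.0376. Ksr1, with 20 new distal peaks, fell by 0.68 on the log2 scale (SE 0.06). Cdc42ep1, a Cdc42 effector, fell by 1.87 (SE 0.19), and Hpca, the gene of the calcium sensor hippocalcin, fell by 0.62 (SE 0.06). At P21 these 6 did not pass edgeR, though DESeq2 called Aldoc, and had log2 changes of 0.19 (Bcan, SE 0.16), -0.37 (Aldoc, SE 0.11), -0.29 (Slco1c1, SE 0.11), 0.20 (Ksr1, SE 0.15), -0.52 (Cdc42ep1, SE 0.17) and 0.32 (Hpca, SE 0.12). The number of lower calls at E16.5 fell in every refit without 1 library. It was 0 without WT replicate 1 or WT replicate 3, where 0% of genes with coordinates were called lower too. Without WT replicate 2 it was 1 (0.0457% of linked genes, against 0.0254% of genes with coordinates). It was 1 (0.0455% against 0.0314%) without cKO replicate 2 and 2 (0.0910% against 0.0440%) without cKO replicate 1. Without cKO replicate 3 it was 6 (0.274% against 0.0823%). Arid1a, Ksr1, Hpca and Cdc42ep1 lost their call whichever library was left out, so no single library carried these calls. All 7 log2 changes stayed below 0 in these refits.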

How the data were processed

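Hippocampal ChIP-seq (1 library each of H3K27ac, H3K4me3, H3K27me3 and input per genotype) and RNA-seq (2 libraries per genotype at P21, 3 at E16.5) were analysed from the authors' tables. The ChIP-seq peak lists were made by the authors with MACS2 against the matched input at q 0.01, per the file headers, which give version 2.2.7.1, whereas the submitters' processing notes name 2.2.5. The lists hold the deposited pileup signal, the fold enrichment ratio at the summit and -log10 p and q, all from the authors' peak caller. Reads were aligned to GRCm38 with Bowtie2 2.3.5.1, per the submitters' processing notes. RNA was quantified with Salmon 1.0.0, and the deposited gene tables give estimated counts from the authors' processing, per the submitters' processing notes. Their tables also carry the authors' DESeq2 1.26.0 log2 fold changes and p-values, which are not used in the report.

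Peaks were intersected on their bases (1 shared base counts), placed on RefSeq genes (GRCm38.p6) and linked to all genes within 10 kb. Of genes tested at P21, 91.6% had coordinates. The table of promoters, as used here, holds no start sites for the 253 new distal peaks of chromosome 18, and promoter windows stand in for sequence under the peaks. Estimated counts were rounded to whole numbers and tested with edgeR 4.0.16 (R 4.3.3; filterByExpr, TMM, quasi-likelihood, Benjamini-Hochberg), with each age fitted alone, and the difference between ages in 1 fit of all 10 libraries. Libraries summed to between 20089455 and 20331994 counts (P21) and between 17662154 and 19760616 (E16.5). Nothing in the labels says that RNA replicates came from separate animals, so p-values measure the spread between these libraries. DESeq2 1.42.0 was an alternative, as were other scalings, filters, overlaps, a replicate block and leaving out each library. Peak work used Python 3.11.15 with pandas 2.3.3, numpy 2.4.6 and scipy 1.17.1. Intervals on shares cover counting error only. On simulated counts for 17407 genes at P21 the test recovered 65% of changes of 2-fold and 85% of 4-fold, with 27 false among 177 calls. For 16958 genes at E16.5 it recovered 40% and 76%, with 11 false among 127.

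Named genes were Arid1a, the 10 with most new distal peaks, the 10 highest and 10 lowest log2 changes among called linked genes at P21 whose higher genotype averaged 1 CPM or more, whose groups do not overlap and whose symbol is no model name, the called linked genes at E16.5, and up to 3 called linked members per list. The new distal peaks, the gene lists and the tests were chosen with earlier results of these data known.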

Additional observations from a re-analysis of the deposited data

Results flagged for a closer look

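For 8 named genes linked to new distal peaks the cKO effect on RNA differed between P21 and E16.5 by the test of the difference itself, a genotype by age term fitted with edgeR over all genes and given as P21 minus E16.5 on the log2 scale. Of the genes that rose at P21, Plin4 differed by 3.42 (SE 0.61; adjusted p = 0.0404, edgeR), Socs3 by 2.59 (SE 0.34; adjusted p = 0.0248, edgeR) and Zfp36 by 2.39 (SE 0.41; adjusted p = 0.0363, edgeR). At E16.5 Socs3 had 15.3, 11.6 and 15.5 CPM in WT and 7.57, 6.79 and 6.70 CPM in cKO, so its groups lay apart in the direction opposite to that at P21. Plin4 was too low at E16.5 to be tested at that age alone.

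Of the genes that fell at E16.5, Bcan differed by 3.40 (SE 0.30; adjusted p = 0.00894, edgeR), Aldoc by 1.93 (SE 0.29; adjusted p = 0.0296, edgeR), Slco1c1 by 1.23 (SE 0.16; adjusted p = 0.0248, edgeR) and Hpca by 0.90 (SE 0.15; adjusted p = 0.033, edgeR). Ephb2 differed by -0.88 (SE 0.12; adjusted p = 0.0255, edgeR), with 246, 236 and 258 CPM in WT and 228, 256 and 222 CPM in cKO at E16.5, where the genotypes overlapped. Each age has its own libraries, so age and library set cannot be told apart.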

How the results depend on the processing

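The number of new distal peaks was 2976 when only cKO peaks with -log10 q of 5 or more were used and 839 when the cKO list was limited to the number of WT peaks, and stayed within 1.5 times of 4987 under the other 3 overlap settings (4123 to 5877). The share under cKO H3K27me3 was 1.31% with an overlap of 50% of the peak and 0.601% with H3K4me3 peaks widened by 1 kb. The share inside genes was 80.9% with WT peaks widened by 1 kb, 80.9% with H3K4me3 peaks widened by 1 kb and 75.3% with the limited list. With that list 27 linked genes were higher and 28 lower at P21, and 2 were lower at E16.5. Of its 603 linked genes tested at P21 these were 4.48% and 4.64%, against 2.83% and 4.08% of genes with coordinates. At E16.5, 4 were lower with H3K4me3 peaks widened and 4 with the -log10 q of 5 or more. These settings keep fewer or other peaks by construction, and the part of that in the RNA shares was not tested.

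With no filter on low counts, 127 linked genes were higher and 202 lower at P21, and 3 and 36 at E16.5. The P21 shares were 4.78% and 7.60%, against 3.28% and 4.59% of genes with coordinates. At E16.5 they were 0.113% and 1.35%, against 0.0840% and 0.393%. In 1 fit of all 10 libraries the counts were 28 and 54 at P21 and 6 and 46 at E16.5. Here the P21 shares were 1.23% and 2.36%, against 0.854% and 1.99% of genes with coordinates. At E16.5 they were 0.263% and 2.01%, against 0.171% and 0.848%. DESeq2 called 53 higher and 168 lower at E16.5. These were 2.499% and 7.92%, against 2.34% and 4.796% of genes with coordinates. The cause of the difference from edgeR was not tested. Leaving out 1 library moved the P21 counts between 25 and 251 higher and between 46 and 255 lower, and the E16.5 count of lower genes between 0 and 6. With the replicate block 49 were higher and 68 lower at P21, and 0 and 0 at E16.5 (edgeR; 73 and 271 at an unadjusted p under 0.05). Deviations of same-numbered libraries from their group means correlated at 0.00857 at P21 and at -0.282, -0.0323 and -0.542 at E16.5. Differently numbered libraries at E16.5 ran from -0.137 to 0.418. With 2 libraries in a group the deviations mirror each other, so the P21 value cannot settle pairing. At E16.5 deviations within a group are also tied to each other, so pairing was neither shown nor excluded. Single named genes lost their call in 58 refits at P21 and 44 at E16.5. No called value changed sign under any setting run, but the split of linked calls at P21 turned with upper-quartile scaling (89 higher, 82 lower). It was near even with the limited cKO list (27 higher, 28 lower).

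Named genes below the threshold changed sign in 7 refits (5 genes) at P21 and 23 (9 genes) at E16.5. On leaving out 1 library, log2 changes at P21 ran from -0.40 to 0.085 for Coro2b, -0.027 to 0.39 for Ksr1, -0.039 to 0.39 for Bcan, -0.019 to 0.19 for Msra and -0.072 to 0.081 for Zmynd8. At E16.5 they ran from -0.24 to 0.00029 for Tcf4, -0.025 to 0.16 for Nfix, -0.62 to 0.37 for Cdkn1a, -0.39 to 0.12 for Zfhx2os, -0.31 to 0.64 for Grm2, -0.60 to 0.22 for Robo3, -0.21 to 0.0037 for Nfia, -0.21 to 0.14 for Sox2 and -0.069 to 0.11 for Bcl11b. Zmynd8 at P21 was -0.0046 with no filter and -0.013 in the fit of all 10 libraries. Cdkn1a at E16.5 was 0.011 by DESeq2, 0.0056 with RLE scaling, 0.012 with upper-quartile scaling, 0.0080 with no filter and 0.018 in the fit of all 10 libraries. Single ChIP-seq libraries and 2 RNA libraries per genotype at P21 limit all of these values.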
